A study of Rattus norvegicus with 10 samples.

Results

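The microRNAs of the miR-17-92 cluster and of its paralogous clusters were measured in collateral vessel tissue from the hind legs of 5 male rats, a strain that the labels spell Spraque-Dawley. On 1 side the femoral artery was ligated and an arteriovenous shunt was added, which maximises fluid shear stress in the collateral arteries (the shunt group, 5 RNAs). The other leg received a sham operation (the control group, 5 RNAs), so both groups come from the same animals, and shunt 1 and control 1 are the legs of 1 rat. The design text calls the 2 conditions growing and quiescent; neither the rats' age nor the time after surgery is given in those sources. Members were the rat probes named miR-17, miR-18, miR-19a, miR-19b, miR-20a, miR-20b, miR-25, miR-92, miR-93 and miR-106b, which are 10 of the 237 rat miRNA probes on the array.

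MicroRNAs are short RNAs that pair with messenger RNAs, mainly through their seed (bases 2 to 8 from the 5′ end), and lower the output of their targets. The miR-17-92 cluster is 1 primary transcript cut into several mature miRNAs; MYC and E2F factors are known to drive it, and it is known for keeping cells dividing and alive. In blood vessels miR-92a, one of its products, is known to restrain vessel growth and to target Klf2, a transcription factor induced in endothelium by flow. A pair of related clusters, miR-106a-363 and miR-106b-25, carry copies with the same seeds, and the miR-106b-25 cluster lies in an intron of Mcm7, a DNA replication helicase gene.

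The mature sequences are shown because some of the members differ from each other by very few bases, and because the seed sets which targets members share. They are the RefSeq sequences on build GRCr8, 5′ to 3′, with the seed in capitals, and all 10 members matched an entry by name (the probes named miR-18 and miR-92 to miR-18a-5p and miR-92a-3p). Of the seeds, AAAGUGC is shared by 5 members, GUGCAAA by 2, AUUGCAC by 2, and AAGGUGC is held by miR-18.
miR-17: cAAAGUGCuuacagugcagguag
miR-20a: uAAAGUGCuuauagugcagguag
miR-20b: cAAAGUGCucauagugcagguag
miR-93: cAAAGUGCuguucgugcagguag
miR-106b: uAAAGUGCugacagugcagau
miR-18: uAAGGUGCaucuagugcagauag
miR-19a: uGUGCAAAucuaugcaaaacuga
miR-19b: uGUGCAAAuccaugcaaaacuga
miR-25: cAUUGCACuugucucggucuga
miR-92: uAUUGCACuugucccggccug

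On GRCr8 the member sites of the miR-17-92 cluster span 762 bases at chr15:98587861-98588622 on the plus strand. Those of the miR-106a-363 cluster span 693 bases at chrX:137342945-137343637 on the minus strand, and those of the miR-106b-25 cluster span 472 bases at chr12:22156652-22157123 on the minus strand. The sequences of miR-17, miR-19b and miR-92 lie in both the chromosome 15 and the chromosome X clusters (the X copy of miR-17 is in the hairpin named Mir106a), so a probe for them reads both loci. Of the others, miR-18, miR-19a and miR-20a lie only on chromosome 15, miR-20b only on X, and miR-106b, miR-93 and miR-25 only on 12. The sequences of miR-19a and miR-19b differ by 1 edit (a base replaced, inserted or removed), those of miR-17 and miR-20a by 2 and those of miR-17 and miR-93 by 3. The probes' own sequences were not used here, so how far each probe also binds its near-identical relatives was not tested.

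Each RNA was read on 2 of 10 arrays, once with the red dye AF665 and once with the green dye AF546, so each group has 10 channels. Control RNA only was on 4 arrays, shunt RNA only on 4, and both groups were on 2. A miRNA counted as above background in a channel where 2 or more of 3 spots were brighter than the background around them by over 2 SD, and it was tested if this held in at least 0.5 of the channels of 1 group, which kept 93 of the 237 rat miRNAs. Between 30 and 127 rat miRNAs were above background per channel, and the number of arrays limits the precision. Levels are normalised intensities on the log2 scale after an offset of 50, which places an unlit spot near 5.64 and compresses differences of dim probes. No 2 RNAs had identical values, and their correlations over the 93 miRNAs ran from 0.848 to 0.988.

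All 10 members were dim. Net of background, their raw intensity ran from -0.667 to 70 units (median 10.2) in the AF665 channel and from 2.33 to 88.3 units (median 35.2) in the AF546 channel. Of the 10, miR-17, miR-20a, miR-93, miR-106b, miR-19b and miR-25 passed the filter, and miR-18, miR-19a, miR-20b and miR-92 did not. Of the 6, miR-20a, miR-19b and miR-25 passed through the shunt channels alone, so the 6 do not stand for all 10 and their directions were partly set by the filter. Tissue makeup could not be separated from expression in these bulk samples: fewer cells of a type and less RNA per cell cannot be told apart.

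Members were above background more often in shunt than in control RNA, in 48 of 100 readings against 27 of 100, and so were rat miRNAs in general, in 888 of 2370 readings against 605 of 2370. The count of members above background per RNA, averaged over its 2 channels, was 4.8 ± 1.25 in shunt and 2.7 ± 1.60 in control (SD, n = 5 each). The excess in shunt was seen on the arrays that held 1 group and not on those that held both, for members and for rat miRNAs in general. On the arrays that held 1 group, members were above background in 44 of 80 shunt readings (55%) and 20 of 80 control readings (25%). On the 2 arrays that held both groups they were above in 4 of 20 shunt readings (20%) and 7 of 20 control readings (35%). These 2 arrays differed for members. One had 4 above in shunt 1 (AF546) and 3 in control 5 (AF665), the other 0 in shunt 5 (AF665) and 4 in control 1 (AF546). On each of them the groups also differed in dye. Per channel, 78 to 127 rat miRNAs were above background in shunt and 36 to 86 in control on the former arrays, and 30 to 54 in shunt and 55 to 84 in control on the latter. One of these shunt channels, shunt 5 in AF665, had no member above background, and it is the one shunt channel in which miR-17, miR-93 and miR-106b were not seen. What part the brightness of single arrays has in the difference was not tested.

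**Figure D1:**
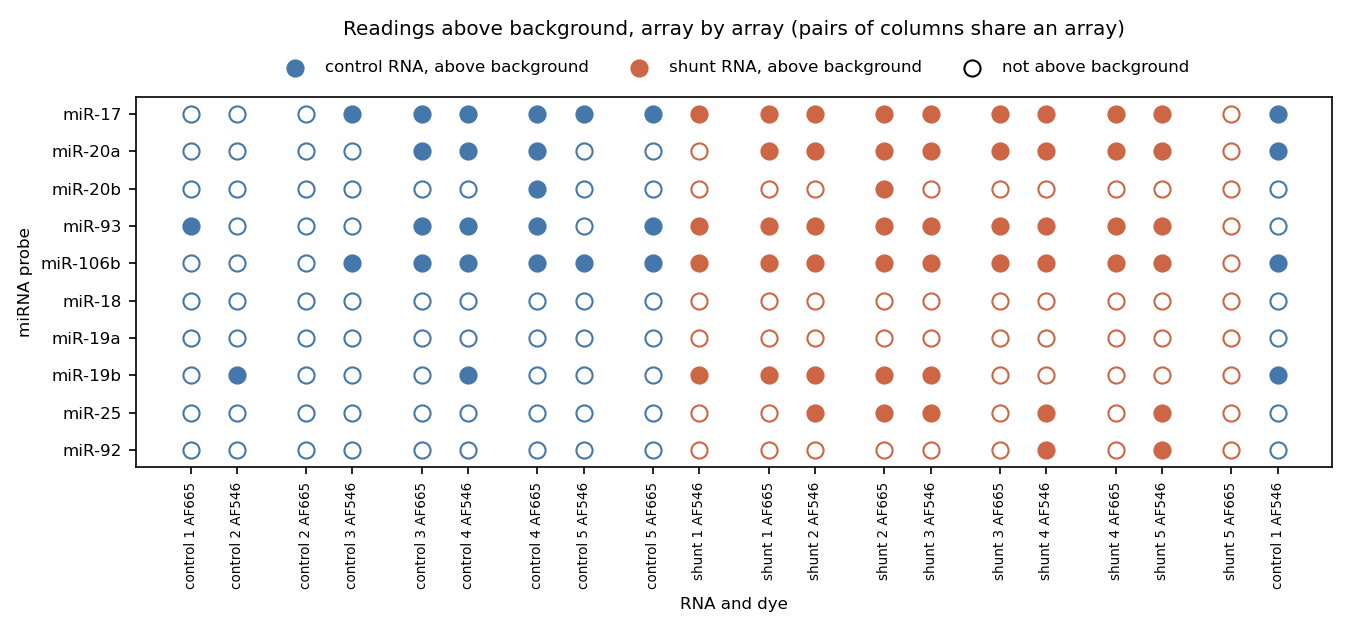
Members above background in each of the 20 channels. Columns are an RNA and its dye, and columns set close together share an array; rows are the 10 miRNA probes. A filled circle is a reading above background (control blue, shunt red) and an open circle is one that is not. The circles of miR-17, miR-93 and miR-106b are filled in 9 of 10 shunt channels each, and those of miR-18 and miR-19a in none.

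No member passed the test between shunt and control: 0 of 6 had an adjusted p under 0.05 by limma with Benjamini-Hochberg adjustment over all 93 miRNAs, where 1 miRNA (1.08%), miR-21, passed. At an unadjusted p under 0.05, 2 of 6 members (miR-20a and miR-93) were higher in shunt, beside 17.2% of all 93. MiR-20a met the filter in shunt alone, so this count was partly set by the filter. With the rat as a block, which takes account of the paired legs, the unadjusted p-values became 0.0909 for miR-20a and 0.0888 for miR-93 by limma. With that block 0 of 93 miRNAs passed after adjustment, miR-21 included (13 of 93 had an unadjusted p under 0.05). The fitted level was higher in shunt for 5 of 6 members, beside 72% of all 93, and the median difference was 0.14 on the log2 scale for the members and 0.12 for all 93. Of these 5, miR-20a and miR-25 met the filter in shunt alone, so this count and median were partly set by the filter. MiR-17, miR-93 and miR-106b met it in both groups, with differences of 0.11, 0.18 and 0.16. After centring every RNA on its median over the 93 miRNAs, 3 of 6 members were higher, beside 47.3%, and the members' median was 0.019. The 2 groups overlapped for each of the 6 members, while 5.38% of the 93 miRNAs were separated with shunt higher. In this setting the members lay close to the middle of all tested miRNAs.

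**Figure D2:**
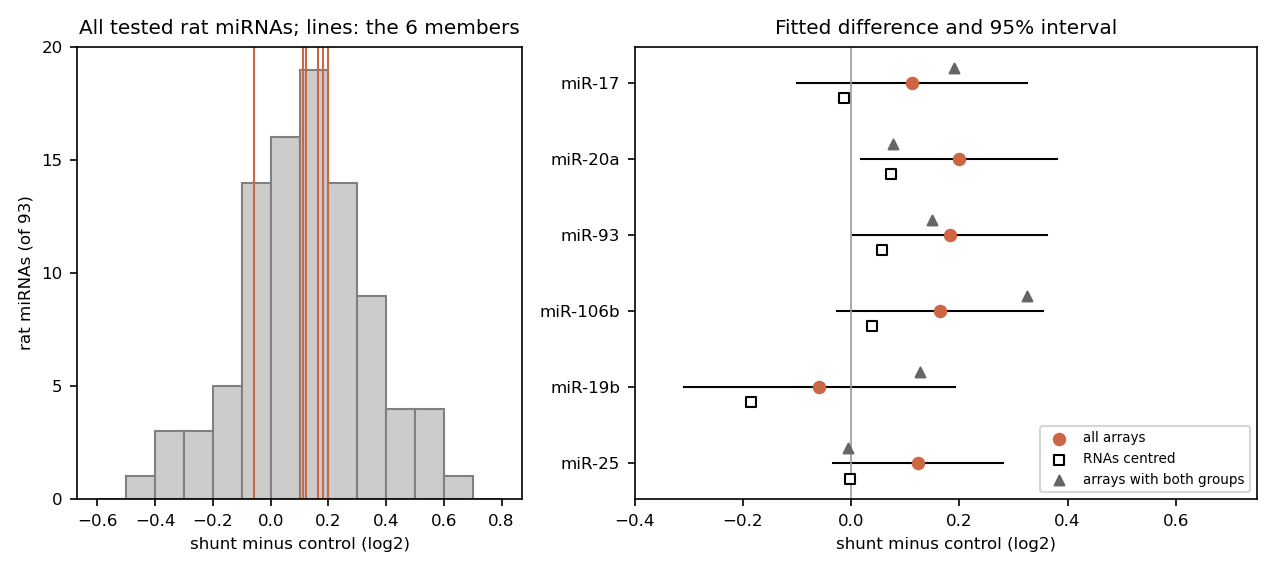
Shunt minus control on the log2 scale. Left: histogram of the 93 tested rat miRNAs (count of miRNAs per bin), with a red line for each of the 6 members. Right: for each member the fitted difference with its 95% interval (red circle and bar), the difference after centring every RNA on its median (open square) and the mean over the 2 arrays that held both groups (triangle). The red lines lie between -0.06 and 0.20, inside the bulk of the histogram. For each member at least 1 reading behind the triangle was not above background. MiR-25 is drawn as fitted, though none of its control readings was above background.

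Of the miRNAs with the seed AAAGUGC, the largest seed group, 4 of 5 members could be tested and none passed the test. MiR-17, miR-93 and miR-106b met the filter in both groups and were fitted higher in shunt, by 0.11, 0.18 and 0.16. Over all 93 miRNAs 72% were higher, with a median of 0.12. MiR-20a met the filter in shunt alone, so its direction is not counted here. After centring, the differences of miR-17, miR-93 and miR-106b were -0.013, 0.057 and 0.039. The 5 members with this seed were above background in 36 of 50 shunt readings and 24 of 50 control readings, beside 888 and 605 of 2370 over all rat miRNAs. MiRNAs with this seed are known to target Cdkn1a, which encodes the cell cycle inhibitor p21, and Bcl2l11, which encodes the death-promoting protein Bim.

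MiR-20a, which lies only in the chromosome 15 cluster, read 6.13, 6.003, 6.08, 6.38 and 6.23 in control 1 to 5 and 6.26, 6.42, 6.41, 6.34 and 6.38 in shunt 1 to 5. Shunt was higher in 4 of 5 rats. The groups overlapped through control 4, the highest control, which lay above shunt 1, shunt 4 and shunt 5. The difference was 0.20 (SE 0.082, 95% interval 0.017 to 0.38, n = 5 each; limma, unadjusted p = 0.0344, adjusted p = 0.213). Without control 4 it was 0.25 and passed the test (limma, adjusted p = 0.0376). Without that RNA 25 of 93 miRNAs (26.9%) passed, and control 4 was the highest control for 41 of the 93 (44.1%), so this call is shared by many miRNAs. MiR-20a was above background in 8 shunt and 4 control channels of 10, so it met the filter in shunt alone. Its direction, and with it the call without control 4, was therefore partly set by the filter. On the 2 arrays that held both groups it was 0.0062 and 0.15 higher in shunt, a mean of 0.078 beside a median of 0.046 over all 93. Of the readings behind these values only that of control 1 was above background.

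MiR-93, from the miR-106b-25 cluster on chromosome 12, read 6.29, 6.25, 6.43, 6.61 and 6.46 in control 1 to 5 and 6.56, 6.56, 6.65, 6.66 and 6.52 in shunt 1 to 5. It was higher in shunt in all 5 rats, as were 14% of the 93 miRNAs, by 0.052 (rat 4) to 0.31 (rat 2). Control 4 was again the highest control and overlapped the shunt values. The difference was 0.18 (SE 0.081, 95% interval 0.0034 to 0.36, n = 5 each; limma, unadjusted p = 0.0464, adjusted p = 0.24), and without control 4 it was 0.23 and passed (limma, adjusted p = 0.0455). By dye, miR-93 was 0.077 higher in shunt in the AF665 readings and 0.29 higher in the AF546 readings. On the arrays that held both groups it was 0.029 lower and 0.33 higher, so these 2 arrays differed in direction. On the second of them neither the shunt nor the control reading was above background.

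MiR-106b, the first miRNA of the same chromosome 12 transcript, read 6.28, 6.33, 6.40, 6.54 and 6.60 in control 1 to 5 and 6.75, 6.46, 6.60, 6.55 and 6.61 in shunt 1 to 5. Shunt was higher in all 5 rats, but in rats 4 and 5 by only 0.0028 and 0.013, while rat 1 differed by 0.47. The difference was 0.16 (SE 0.086, 95% interval -0.026 to 0.36; limma, adjusted p = 0.269). On the 2 arrays that held both groups miR-106b was 0.33 and 0.32 higher in shunt, and its mean of 0.32 was the largest among the members there. The shunt 5 reading behind the second value was not above background. Levels were also solved from the within-array ratios alone, which gave a difference of 0.45 that passed the test (limma, adjusted p = 0.0415). In that setting the 2 groups are linked only through the 2 arrays that held both. The call is therefore not separate from the values on those arrays, and the test took the solved RNAs as independent. After centring every RNA on its median the difference of miR-106b was 0.039 (limma, adjusted p = 0.818). Its probe was above background in 9 of the shunt channels and 7 of the control ones.

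MiR-17, the founding member, read 6.29, 6.54, 6.37, 6.40 and 6.68 in control 1 to 5 and 6.57, 6.35, 6.57, 6.62 and 6.71 in shunt 1 to 5. The groups overlapped over most of their range: control 5 lay above 4 of the shunt values, and shunt 2 lay below 4 of the controls. The difference was 0.11 (SE 0.096, 95% interval -0.10 to 0.32; limma, adjusted p = 0.442), higher in 4 of 5 rats, and it was -0.013 after centring every RNA on its median. MiR-20b, the chromosome X relative, was above background in 1 channel of 10 in each group, and its levels ran from 5.89 to 6.17 in control and from 5.85 to 6.12 in shunt.

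**Figure D3:**
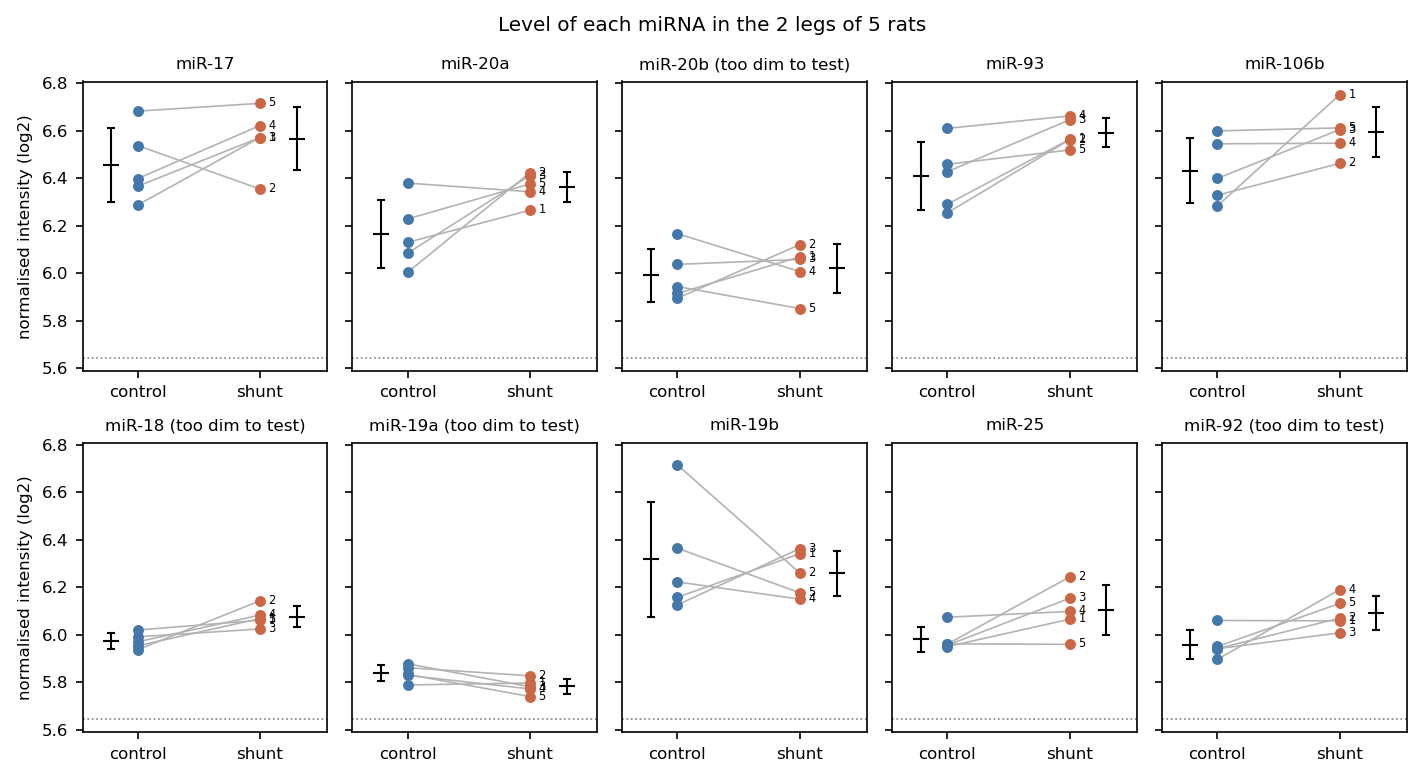
Level of each of the 10 members in the 2 legs of the 5 rats, as normalised intensity on the log2 scale. Points are RNAs (control blue, shunt red), grey lines join the legs of the rat numbered at the right, black marks give the mean and SD of the 5 RNAs, and the dotted line is the offset floor of 5.64. The miR-93 and miR-106b lines all point up or level, the lines of miR-17, miR-20b and miR-19b cross, and the miR-18 groups do not overlap.

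The remaining seeds gave no member that passed the test. MiR-19b read 6.16, 6.71, 6.13, 6.22 and 6.36 in control 1 to 5 and 6.34, 6.26, 6.36, 6.15 and 6.18 in shunt 1 to 5. It was the one tested member with a lower fitted level in shunt, by a difference of -0.059 (SE 0.11, 95% interval -0.31 to 0.19; limma, adjusted p = 0.793). Control 2 stood above the other 9 RNAs, and without it the difference was 0.040. It was also 0.064 with no between-array normalization and 0.075 from the within-array ratios alone, so its direction turned with the processing. On both arrays that held the 2 groups miR-19b was higher in shunt, by 0.12 and 0.14. The control reading of the first and the shunt reading of the second were not above background. Its relative miR-19a was above background in no channel.

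MiR-25 read 5.95, 5.96, 5.96, 6.07 and 5.96 in control 1 to 5 and 6.07, 6.24, 6.15, 6.10 and 5.96 in shunt 1 to 5. None of its control readings was well above background, which held for 9.68% of the 93 miRNAs, and 5 of 10 shunt readings were. Its shunt mean of 6.10 was below 6.25, the level at which a probe stands out from background in the control channels, so neither a fold nor a difference is given here; it did not pass the test (limma, adjusted p = 0.294). Control 4 stood apart from the other control RNAs, and shunt 5 lay among the controls.

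MiR-92, which stands for miR-92a, was detected over background in 2 of 10 shunt readings and no control reading. It read 6.06, 5.94, 5.94, 5.90 and 5.95 in control 1 to 5 and 6.06, 6.07, 6.01, 6.19 and 6.13 in shunt 1 to 5. Shunt was higher in 4 of 5 rats, with a difference of -0.0019 in rat 1, and the groups overlapped through control 1. Its shunt mean of 6.09 was below 6.24, its bound in control by the rule given for miR-25, so no fitted difference is given.

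MiR-18 was the only member whose groups did not overlap: it read 5.95, 5.94, 5.99, 5.97 and 6.02 in control 1 to 5 and 6.07, 6.14, 6.02, 6.08 and 6.06 in shunt 1 to 5. Without a filter, 2.95% of the 237 rat miRNAs were separated this way with shunt higher. Its probe was not above background in any of the 20 channels, so these readings are bounds and not levels. The nearest readings of the groups were 6.02 in control 5 and 6.024 in shunt 3, and no difference is given.

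By genomic cluster, all 3 miRNAs of the chromosome 12 cluster (miR-106b, miR-93 and miR-25) were tested and none passed; miR-106b and miR-93, which met the filter in both groups, were fitted higher in shunt, as were 72% of all 93. All 3 together were above background in 23 of 30 shunt readings and 12 of 30 control readings, miR-25 giving 5 of the shunt and none of the control readings. Over all rat miRNAs the counts were 888 and 605 of 2370. Of the 3 found only on chromosome 15, miR-20a alone was tested. Of the 3 found on both 15 and X, miR-17 and miR-19b were tested, and the direction of each turned with the processing, as given above.

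Likeness between members was described by Pearson's r over the 10 RNAs, after centring each miRNA on its group means; the RNAs share arrays and rats. The 6 tested pairs with the AAAGUGC seed had a median r of 0.45, from -0.079 (miR-17 with miR-20a, the pair 2 edits apart) to 0.77 (miR-20a with miR-93). The 9 pairs with different seeds had a median r of 0.020, from -0.57 to 0.51. All 4278 pairs of tested miRNAs had 0.155, from -0.93 to 0.99. Each of the 9 pairs holds miR-19b or miR-25, so the part of the seed and that of these probes cannot be told apart. Closeness in sequence did not order the pairs, since miR-17 with miR-93, at 3 edits, gave 0.037. The 6 tested members are few among the 93 tested miRNAs, and the 2 miRNAs most like each member all lay outside the family. They were miR-299 (0.83) and miR-338 (0.83) for miR-17, miR-103 (0.87) and let-7d (0.84) for miR-20a, and miR-493 (0.86) and miR-107 (0.81) for miR-93. For miR-106b they were miR-329 (0.86) and miR-207 (0.82), and for miR-19b miR-154 (0.86) and miR-30c (0.82). MiR-25 was most like miR-151* (0.97) and miR-21 (0.93), and miR-21 was the miRNA that passed the test in these samples. None of the control readings of miR-25 was above background, so its r values rest partly on readings near the floor. All these miRNAs were picked for the highest r among those tested, so the size of r is partly set by that choice.

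The opposite arm of the miR-20a hairpin has its own probe. Its RefSeq sequence on GRCr8 has another seed, in capitals.
miR-20a*: aCUGCAUUacgagcacuuaca
MiR-20a* read 6.76, 6.30, 6.02, 7.50 and 6.45 in control 1 to 5 and 6.81, 7.31, 7.13, 7.03 and 6.76 in shunt 1 to 5. All 10 shunt readings and 5 of 10 control readings exceeded background. The groups overlapped through control 4, the highest of the 10 RNAs. Between legs the difference was 0.049, 1.02, 1.11, -0.48 and 0.31 in rats 1 to 5. The fitted difference was 0.40 (SE 0.24, 95% interval -0.13 to 0.93; limma, adjusted p = 0.294). The arms of miR-20a come from 1 hairpin, and over the 10 RNAs their centred levels correlated at r = 0.81, and at 0.59 without control 4. The opposite arms miR-20b* and miR-363-5p were above background in no channel, nor was miR-32, which shares the AUUGCAC seed, and miR-363-3p, from the X cluster with the same seed, was above in 1 control channel.

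**Figure D4:**
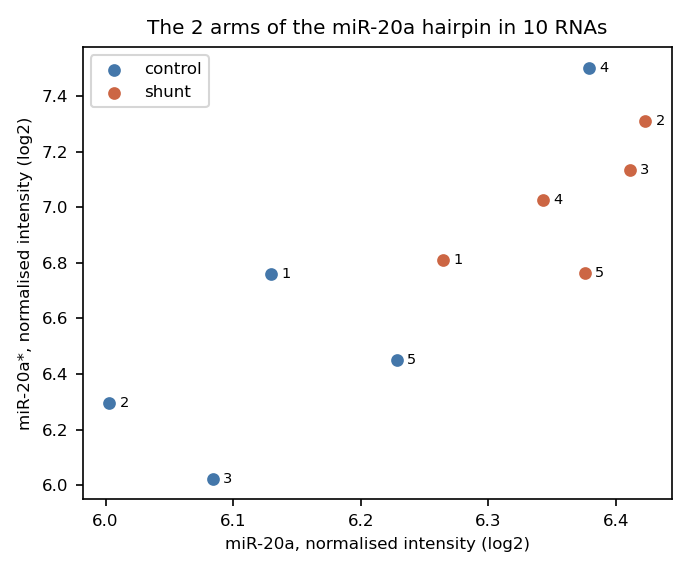
MiR-20a (horizontal axis) against its opposite arm miR-20a* (vertical axis) in the 10 RNAs, as normalised intensity on the log2 scale. Points are RNAs numbered by rat (control blue, shunt red). Control 4 lies at the upper right with the shunt RNAs, and control 2 and control 3 lie at the lower left.

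The authors' deposited table gives a shunt over control value for each rat, and in it 21 of 30 values of the tested members (70%) were above 0, beside 59.1% of the 465 values of all 93 miRNAs. The tested members include miR-20a, miR-19b and miR-25, which met the filter in shunt alone. In the authors' deposited table none of these 30 member values had a p under 0.05, beside 66 of 465 (14.2%). MiR-93 and miR-106b were higher in shunt in 3 of 5 rats in the authors' deposited table. No difference is given from it for miR-25, above background in no control channel here, or for miR-18, above in no channel. For miR-20a* the log2 values in the authors' deposited table were 0.13, 2.02, 1.15, -0.93 and 0.20 in rats 1 to 5. Those of rats 2 and 3 had a p under 0.05 there, by a test that no source used here names. Each p in that table compares the 2 legs of a single rat. It therefore does not measure the spread among rats.

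Other lists place the family beside known biology. Of the miRNAs that MYC is known to repress in human and mouse lymphoma cells, 16 of 19 were on the array and 13 were tested; 9 were fitted higher and 4 lower in shunt, with a median of 0.12 and none past the test, beside 72% higher and a median of 0.12 over all 93. Its extremes were let-7d, a miRNA known to restrain growth, with a difference of 0.60 (limma, adjusted p = 0.182) and miR-29a, known to target collagen transcripts, with -0.38 (limma, adjusted p = 0.087). The tissue label was checked on cell type markers. MiR-126, the endothelial marker, was above background in all 20 channels and differed by -0.0070 (limma, adjusted p = 0.981), and miR-143 and miR-145 of smooth muscle were above in 18 of 20 control and 19 of 20 shunt channels. MiR-143 differed by 0.046 (limma, adjusted p = 0.967), and miR-145 by -0.26 (limma, unadjusted p = 0.0429, adjusted p = 0.235), with shunt higher in 0 of 5 rats.

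Markers of other cell types were read in the same RNAs. The skeletal muscle markers miR-1, miR-133a, miR-133b and miR-206 were all 4 fitted higher in shunt, with a median of 0.23 and none past the test, beside 72% higher and 0.12 over all 93, and miR-1 met the filter in shunt alone. Background was exceeded in 36 of 40 shunt and 26 of 40 control readings (888 and 605 of 2370 over all rat miRNAs). The summed linear level of these 4 markers ran from 440.2 to 734 in shunt and from 345 to 527 in control. Summed levels hold the offset of 50 for each probe, here and for the lists below, so part of each sum is not signal. Of the 5 epithelial markers, miR-200a, miR-200b and miR-203 met the filter, in shunt alone, so their direction is not counted. The 5 had 22 of 50 shunt and 3 of 50 control readings above background and summed levels of 341 to 397 and 324 to 359, while miR-141 was above in no channel. Of the leukocyte markers 5 of 7 were on the array and 2 were tested (miR-146 0.47, miR-150 -0.0040), with 21 of 50 shunt and 17 of 50 control readings above background and summed levels of 418 to 449.5 and 352 to 442. The red cell markers miR-144 and miR-451, 2 of 3 listed, were above background in no channel. The part of these cell types in the members' values was not tested.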

How the data were processed

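The authors deposited scanner files with spot intensity and its surrounding background for 3321 spots (1107 probes) on 10 arrays, per the file headers, with no normalization. Their value table holds log2 levels, and their collapsed table a signed fold (a score) and a p-value per rat, as deposited; no source used here gives the processing behind either. Intensities were corrected with normexp (offset 50), normalized by loess within arrays (span 0.3, 4 iterations) and Aquantile between arrays, and averaged over 3 spots and 2 channels per RNA. Shunt and control RNAs (n = 5 each) were compared with lmFit and eBayes of limma 3.58.1 in R 4.3.3 (two-sided, Benjamini-Hochberg, threshold 0.05), tested on simulated data. The animal was an alternative block: the legs share a rat by their sample names, and same-numbered legs' deviations correlated from -0.418 to 0.337. Members and lists were chosen with earlier results of these data known. Named miRNAs are all members, their seed relatives, opposite arms and list members, and the 2 miRNAs most correlated with each tested member. Other alternatives changed background correction, normalization, filter, model, scaling, source of values and RNAs left out.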

Additional observations from a re-analysis of the deposited data

Results flagged for a closer look

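Among 30 groups of 5 RNAs examined for 1 value far from the rest, 2 held one, where chance gives about 5%. MiR-25 in control 4 read 6.07 on the log2 scale, while the other 4 control RNAs lay at 5.96 ± 0.0052 (SD, n = 4), and the gap to the nearest of them took up 0.908 of the range of the group. MiR-20b*, the opposite arm of miR-20b, read 6.10 in shunt 1, while the other 4 shunt RNAs lay at 5.91 ± 0.015 (SD, n = 4), a gap of 0.826 of the range. Neither probe was above background in the channels of the RNA named.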

How the results depend on the processing

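The count of rat miRNAs past the threshold was 1 of 93 in the reported analysis. It was 0 with arrays left without between-array normalization, with median centring instead of loess, with the deposited value table, with the stricter filter (27 miRNAs and none of the members left, so no member values) and with the animal as a replicate block. It was 2 with an offset of 0 or quantile normalization, and 3 with no background correction, with no filter or with ratios only. It was 4 with each RNA centred or with eBayes using trend and robust settings, and 7 with separate channels. Leaving out single RNAs gave 0 to 25, the highest without control 4. The count of members was 0, but 1 (miR-106b) with ratios only, where 2 arrays link the groups. It was 0 to 2 with single RNAs left out (2, miR-20a and miR-93, without control 4). The members' median of 0.14 became 0.36 with an offset of 0 (0.24 over all 93), 0.25 with no between-array normalization (0.28 over all 93) and 0.019 with centring, and ran from 0.12 to 0.18 with single RNAs left out. With no filter the members' median was still taken over the same 6 filtered members, so it could only stay at 0.14. It is therefore not set against the median of 0.020 over all 237 unfiltered miRNAs. The share of miRNAs fitted higher in shunt was 72% as reported, 91.4% with no between-array normalization, 59.5% with no filter and 47.3% with centring. With centring miR-17 turned to -0.013 and miR-25 to -0.0018. MiR-19b turned to 0.064 with no between-array normalization, 0.075 with ratios only and 0.040 without control 2 (from -0.11 to 0.040 with single RNAs left out); the cause was not tested. MiR-93, miR-106b and miR-20a, the last of which met the filter in shunt alone, stayed above 0 under all 22 alternatives that gave a value. With the animal as a replicate block 13 of 93 miRNAs, and 0 of 6 members, had an unadjusted p under 0.05, and it changed no member's call. The low signal over background limits the values of all 10 members.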
